A study of Rattus norvegicus with 6 samples.

Results

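Small RNA of epididymal sperm was profiled in wild-type Wistar rats, 3 fed a high-protein diet (HPD) and 3 fed a standard diet (SD). The diets started at 10 weeks of age, the HPD was given for 2 to 3 months, and the sample labels give an age of 5 months for all 6 rats. The methods describe the libraries as made from individual rats and a hypotonic shock as the step that reduced somatic cells. Described here are 5 miRNA hairpins whose mature products were reported in work on sperm of stressed male mice, rno-mir-375, rno-mir-204, rno-mir-32, rno-mir-193a and rno-mir-532, taken by name from the 379 hairpin rows matched to the genome in a table of 26562 small RNAs. All 5 had a row (the rat prefix rno is left out below) and all 5 passed the filter on low counts. The question was whether a diet moves them too.

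A miRNA is cut from a hairpin precursor, loaded into an Argonaute protein and guided to messenger RNAs mainly by its seed, bases 2 to 8 from the 5′ end. Sperm carry miRNAs into the egg, and the epididymal epithelium passes small RNAs to maturing sperm in vesicles. In mice, chronic stress of the father or separation stress in early life was followed by changes in sperm miRNAs, and the hairpins described here come from that work.

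The mature sequences are shown because the deposited rows count a hairpin as a whole and do not separate its arms, so that reads of either sequence of a pair enter the same value. The sequences are those of RefSeq for the rat assembly GRCr8, in which all 5 hairpins were found, and capitals mark the seed.
miR-375-3p: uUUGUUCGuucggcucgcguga
miR-375-5p: gCGACGAGccccucgcacaaacc
miR-204-5p: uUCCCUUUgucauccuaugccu
miR-204-3p: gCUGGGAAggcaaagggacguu
miR-32-5p: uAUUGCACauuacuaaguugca
miR-32-3p: gCAAUUUAgugugugugauauu
miR-193a-5p: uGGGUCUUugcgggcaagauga
miR-193a-3p: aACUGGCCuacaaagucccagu
miR-532-5p: cAUGCCUUgaguguaggacugu
miR-532-3p: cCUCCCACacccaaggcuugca

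No seed was shared between the 5 hairpins. Of 693 mature rat miRNAs in the RefSeq table, none shared a seed with either arm of miR-375, so this miRNA stood alone. The seed of miR-32-5p was shared by miR-25-3p, miR-92a-3p, miR-92b-3p and miR-363-3p. The seed of miR-204-5p was shared by miR-211-5p, that of miR-193a-3p by miR-193b-3p and that of miR-532-5p by miR-511-5p. The products of the relatives that matter for the values below are shown with the seed in capitals.
miR-211-5p: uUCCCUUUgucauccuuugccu
miR-25-3p: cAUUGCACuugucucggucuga
miR-92a-3p: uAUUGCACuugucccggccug
miR-193b-3p: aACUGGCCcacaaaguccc

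The first 16 bases of miR-204-5p and miR-211-5p are the same. In 3 of 6 libraries the count of mir-204 was not a whole number, which is how the annotation records reads that fit more than a single RNA, and the other 4 hairpins had whole counts in all 6 libraries. The values of mir-204 and mir-211 are therefore not fully separate.

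In GRCr8 the hairpin of miR-375 lies at chr9:83906582-83906656 on the minus strand, within the span of a gene annotated as LOC134480387. That of miR-204 lies at chr1:229743461-229743570 on the plus strand, within the span of Trpm3, an ion channel gene. That of miR-32 lies at chr5:76391285-76391354 on the minus strand, within the span of Tmem245. That of miR-193a lies at chr10:65170317-65170402 on the plus strand, within the span of the gene annotated as Faul2, and another miRNA hairpin, mir-3549, is annotated on the opposite strand over all 86 of its bases. That of miR-532 lies at chrX:17919185-17919263 on the plus strand, within the span of the chloride transporter gene Clcn5. The table gives gene spans only, so exons and introns were not told apart, and the authors' own build was Rnor_6.0.

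The libraries held 5703625 to 7697588 annotated reads in HPD sperm and 4141018 to 7920000 in SD sperm. Reads of miRNAs numbered 840988 to 1029991 in HPD and 865310 to 2292759 in SD libraries, which is 11.3% to 15.1% of the annotated reads in HPD and 20.9% to 28.9% in SD libraries. As the miRNA share was lower in HPD sperm, each member was read on 2 scales, against all small RNAs and against miRNAs alone, the second as reads scaled to the miRNA total of the library (RPM of miRNAs). Of the germ cell miRNA markers 11 of 11 had reads, with a sum of 89568 to 119940 normalized counts in HPD and 73624 to 90189 in SD libraries. The listed markers of other cell types all had reads as well, with epithelial sums of 26069 to 51100 in HPD and 39921 to 77405 in SD libraries. Reads of germ cell markers thus go with the label of spermatozoa but do not show that the sperm were pure. No batch is given for the 6 libraries.

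By level the 5 hairpins spread over a wide range. Mature lengths were 22 or 23 bases, so no correction for length was made when normalized counts were compared between them. Whether the libraries recovered these sequences equally well was not tested. The mean over the 6 libraries was 5544 normalized counts for mir-375, the 42nd highest of 379 hairpin rows, and 2424 for mir-204, the 67th. It was 142 for mir-532, 95.7 for mir-32 and 57.2 for mir-193a, at ranks 163, 185 and 210. The order of mir-375 and mir-204 above the other 3 held in every library. In HPD sperm mir-32 (116 ± 25.1, mean ± standard deviation, n = 3) and mir-532 (110 ± 9.21) did not differ beyond their spread. In SD sperm the same held for mir-532 (174 ± 68.1) beside mir-193a (97.3 ± 15.2), and for mir-193a beside mir-32 (75.8 ± 26.4).

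Tested against all small RNAs in 1 model, 2 of the 5 hairpins were lower in HPD sperm and none was higher. These were mir-204 and mir-193a. A row is called here when its *p* from the quasi-likelihood test of edgeR, adjusted by Benjamini and Hochberg over all 1858 rows tested, is at most 0.05, and SE stands for the standard error of a log2 fold change. The background is high, since 29.5% of the 281 hairpin rows tested were called lower and 0% higher, against 6.4% lower and 2.21% higher among all rows. At an unadjusted *p* under 0.05, 131 hairpin rows were lower and 2 higher with edgeR, none of the 2 a member, and DESeq2 called 1 hairpin row higher, also no member. A share of 2 in 5 is near the background of hairpins and is not a result about these miRNAs as a set. The study also asks for a 2-fold change or more and for a mean of over 200 normalized counts. On those terms, applied to the edgeR fit, mir-204 alone passed, as did 20.6% of hairpin rows in the lower direction. The pass was close to the fold limit, with a log2 fold change of −1.05, and of −1.004 with DESeq2, the tool of the study. Over the 20 alternatives described below the log2 fold change of mir-204 ranged from −1.17 to −0.24, on both sides of that limit. The median log2 fold change of the 5 was −0.71, beside −0.87 for all hairpin rows and 0.03 for all rows.

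**Figure D1:**
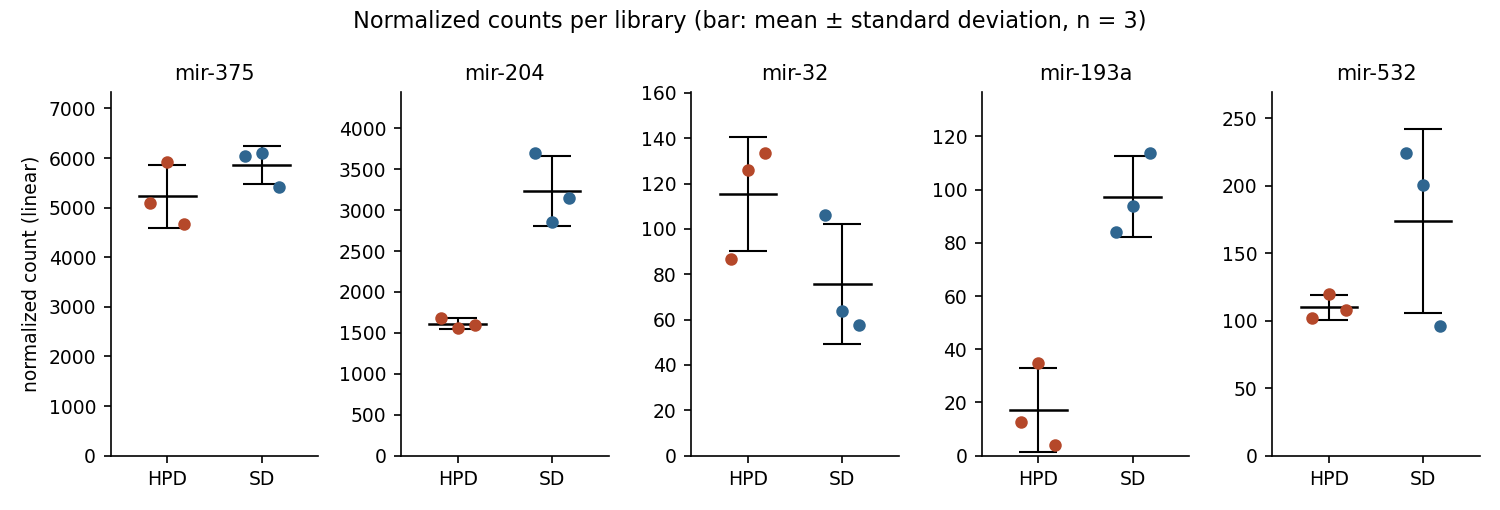
Normalized counts of the 5 hairpins in each library on linear axes that start at 0, HPD left and SD right, with points from left to right for HPD2, HPD3, HPD7 and for CTRL1, CTRL2, CTRL3, and bars for mean ± standard deviation (n = 3). The HPD points lie below all SD points for mir-204 (1555 to 1684 in HPD, 2853 to 3703 in SD) and mir-193a (4.07 to 34.8 in HPD, 84.2 to 114 in SD), and the groups overlap for the other 3.

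miR-204 is a miRNA of epithelia such as the retinal pigment epithelium and the kidney, and in pancreatic islets it acts on the beta cell programme. Its hairpin had 1684, 1555 and 1593 normalized counts in the HPD libraries HPD2, HPD3 and HPD7, against 3703, 2853 and 3153 in the SD libraries CTRL1, CTRL2 and CTRL3. Every HPD library was below every SD library, a pattern that 45.9% of hairpin rows showed, and the HPD libraries lay close together, with a coefficient of variation of 4.10% against 13.3% in SD sperm. The log2 fold change was −1.05 (SE 0.23, 95% interval −1.56 to −0.54, edgeR adjusted *p* = 0.0173), and the ratio of the means was 0.498. Against the other hairpins this was a middling value, as 42.3% of the 281 hairpin rows had a lower log2 fold change. In RPM of miRNAs, mir-204 stood at 2071 ± 625 in HPD and 2480 ± 103 in SD sperm (± standard deviation, n = 3 per group), and the groups overlapped because HPD7, at 2792, was the highest of the 6 libraries. With miRNAs fitted on their own the log2 fold change of mir-204 was −0.24 (95% interval −0.76 to 0.28, adjusted *p* = 0.476), so the call ended. It ended as well with upper quartile factors (−0.81, adjusted *p* = 0.0635), with no filter (−0.80, adjusted *p* = 0.453) and without CTRL1, HPD2, HPD3 or HPD7 (−0.99 to −0.88, adjusted *p* from 0.0582 to 0.136).

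miR-193a is known in human tumour cells as a miRNA that limits growth, with the receptor gene KIT among its targets. The hairpin had 12.7, 34.8 and 4.07 normalized counts in HPD2, HPD3 and HPD7, against 84.2, 93.7 and 114 in CTRL1, CTRL2 and CTRL3. The HPD libraries were all lower, as for 45.9% of hairpin rows. But the HPD libraries differed among themselves by a factor of 8.55, against 1.35 within SD sperm. Their values rest on 11, 40 and 6 reads, against 123, 72 and 91 reads in SD libraries. The log2 fold change was −2.58 (SE 0.62, 95% interval −3.97 to −1.19, edgeR adjusted *p* = 0.0275) and 4.27% of hairpin rows had a lower value. It was lower among miRNAs as well. At 19.6 ± 16.9 RPM of miRNAs in HPD and 76.3 ± 20.1 in SD sperm (± standard deviation, n = 3 per group) the groups did not overlap, a pattern of 26.3% of hairpin rows in this direction, and with miRNAs fitted on their own the log2 fold change was −1.86 (95% interval −3.20 to −0.53, adjusted *p* = 0.0411), where 16.6% of 277 hairpin rows were called lower and 9.03% higher. The size depends on HPD3, the highest HPD library, without which the log2 fold change was −3.55 (adjusted *p* = 0.0226), and on HPD7, the lowest, without which it was −1.96 (adjusted *p* = 0.0917). The call also ended without CTRL1, CTRL2 or HPD2 (adjusted *p* from 0.055 to 0.21) and with upper quartile factors (−2.32, adjusted *p* = 0.0519), and its mean count is below the 200 that the paper asks for.

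miR-375, best known from pancreatic islets, where it restrains insulin secretion in mice, is the most abundant of the 5. It had 5102, 5925 and 4670 normalized counts in HPD2, HPD3 and HPD7, against 6043, 6110 and 5413 in CTRL1, CTRL2 and CTRL3. The groups overlapped, with HPD3 inside the SD range. The log2 fold change was −0.21 (SE 0.20, edgeR adjusted *p* = 0.769), and its 95% interval spans a 0.631-fold to a 1.19-fold level. On the scale of all small RNAs a 2-fold change in either direction thus lies outside it. Of the hairpin rows 74.7% had a lower log2 fold change. It stood at 6632 ± 1543 RPM of miRNAs in HPD and 4548 ± 802 in SD sperm (± standard deviation, n = 3 per group), again with an overlap, as HPD2 (5100) was below CTRL2 (5425). With miRNAs fitted on their own the sign turned, to 0.58 (95% interval 0.07 to 1.10, adjusted *p* = 0.0857), and this interval includes a 2-fold rise. With upper quartile factors the log2 fold change was 0.038 and with no filter 0.044.

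miR-32 shares its seed with the miR-25 and miR-92 miRNAs and is processed from an intron of its host gene in humans. It had 86.9, 126 and 134 normalized counts in HPD2, HPD3 and HPD7, against 106, 63.8 and 57.6 in CTRL1, CTRL2 and CTRL3. HPD3 and HPD7 were above all SD libraries, but HPD2 was below CTRL1. This hairpin had the highest log2 fold change of the 5, at 0.56 (SE 0.39, edgeR adjusted *p* = 0.622), with a 95% interval from a 0.802-fold to a 2.70-fold level. Of the hairpin rows 95.02% had a lower value. In RPM of miRNAs, mir-32 had 86.9, 141 and 234 in HPD2, HPD3 and HPD7, against 67.6, 56.6 and 46.5 in CTRL1, CTRL2 and CTRL3, so that every HPD library was above every SD library. On this scale 16.7% of hairpin rows lay above in this way and 26.3% lay below. On normalized counts 2.49% lay above and mir-32 was not among them. With miRNAs fitted on their own it was called higher, with a log2 fold change of 1.44 (SE 0.40, 95% interval 0.57 to 2.31, adjusted *p* = 0.0196), beside 9.03% of hairpin rows called higher, and 96.0% of hairpin rows had a lower value there.

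The hairpin of miR-532 is part of an X-linked group of miRNAs within Clcn5. It had 102, 120 and 108 normalized counts in HPD2, HPD3 and HPD7, against 224, 200.5 and 96.4 in CTRL1, CTRL2 and CTRL3. All HPD libraries lay between CTRL3 and the other SD libraries, and the SD libraries differed by a factor of 2.33 among themselves, against 1.18 in HPD sperm. The log2 fold change was −0.71 (SE 0.38, 95% interval −1.56 to 0.14, edgeR adjusted *p* = 0.415), a value that 54.8% of hairpin rows were below, and without CTRL3 it was −1.01 (adjusted *p* = 0.09). In RPM of miRNAs it stood at 142 ± 44.1 in HPD and 133 ± 50.9 in SD sperm (± standard deviation, n = 3 per group), and with miRNAs fitted on their own the sign turned (0.14, 95% interval −0.65 to 0.92, adjusted *p* = 0.775).

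**Figure D2:**
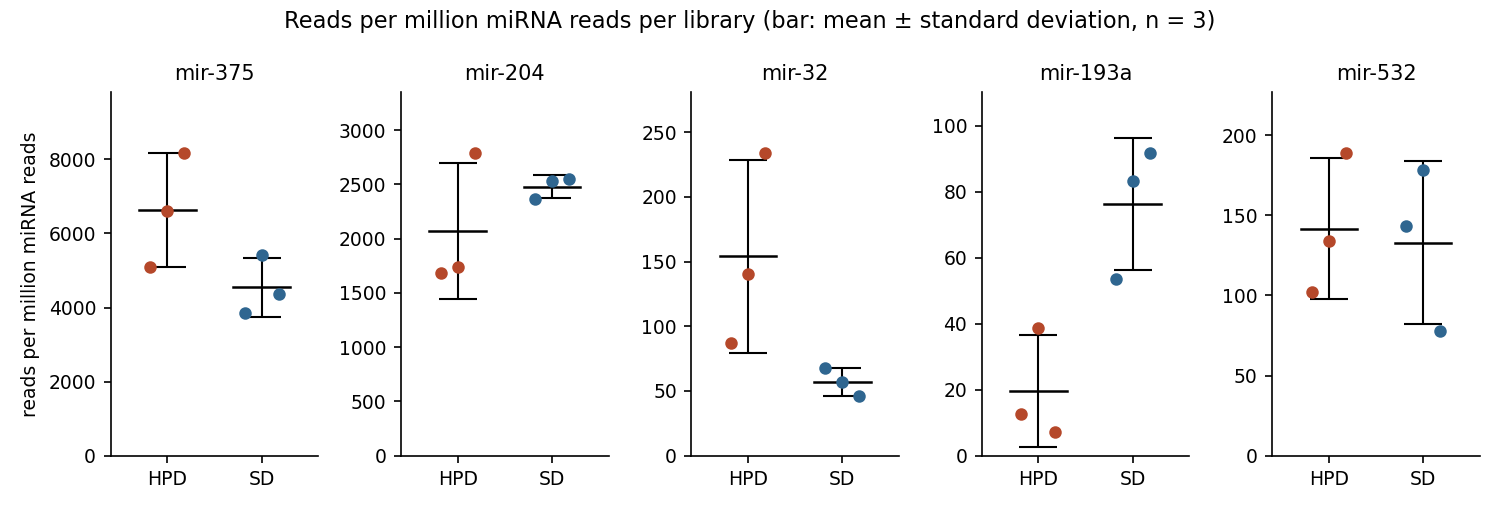
The same hairpins in RPM of miRNAs (reads scaled to the miRNA total of the library) on linear axes that start at 0, with HPD left and SD right, libraries in the order HPD2, HPD3, HPD7 and CTRL1, CTRL2, CTRL3, and bars for mean ± standard deviation (n = 3). On this scale the HPD points lie above all SD points for mir-32 (86.9 to 234 in HPD, 46.5 to 67.6 in SD) and below them for mir-193a (7.13 to 38.8 in HPD, 53.6 to 91.9 in SD).

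The calls of 2 of the 5 hairpins differed between the scales. On the scale of all small RNAs mir-204 and mir-193a were lower, and on the scale of miRNAs alone mir-193a was lower and mir-32 higher, while mir-193a was called on both. The median hairpin was at −0.87 in the first fit and at −0.09 in the second. Together the 5 hairpins made up 0.902 ± 0.223% of the miRNA reads in HPD and 0.729 ± 0.0911% in SD sperm (± standard deviation, n = 3 per group), most of it mir-375. With upper quartile factors the median of all rows was at 0.28 on the log2 scale, beside 0.03 with TMM, and that of hairpins was at −0.63, so values given for those factors hold that shift. With no filter the median of all rows was at 0.68, and with library size alone it was at −0.085.

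**Figure D3:**
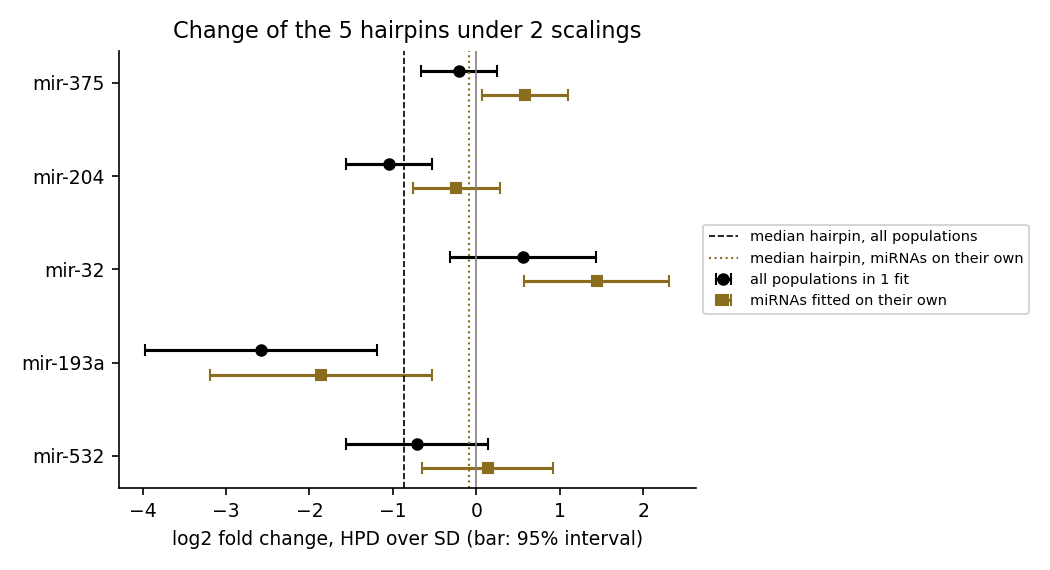
Log2 fold change, HPD over SD, of the 5 hairpins with its 95% interval, from the fit over all populations (circles) and from miRNAs fitted on their own (squares), with lines at the median hairpin of each fit (−0.87 and −0.09). The interval of mir-193a lies below 0 in both fits, that of mir-204 only in the first, and those of mir-32 and mir-375 above 0 only in the second.

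**Figure D4:**
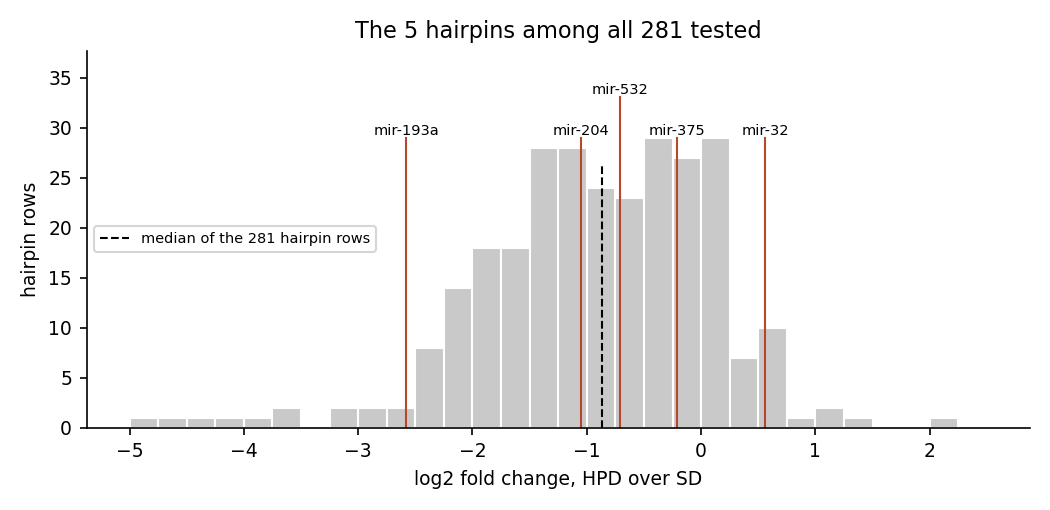
Number of hairpin rows by log2 fold change, HPD over SD, for the 281 rows tested, with the 5 hairpins as lines and the median as a dashed line. mir-204 (−1.05) and mir-532 (−0.71) lie near the median of −0.87, mir-193a (−2.58) in the lower tail and mir-32 (0.56) in the upper one.

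Of the other miRNAs from mouse work on sperm after paternal or early-life stress, 15 names were listed, 14 had a row and 13 were tested. Of these 3 were lower and none higher in HPD sperm, beside 29.5% of hairpin rows lower, and the median log2 fold change was 0.09. The list holds copies with equal or nearly equal counts (mir-30c and mir-466b). With copies counted once 2 of 10 were lower and the median was −0.20, so its sign rests on the copies. The 29.5% of hairpin rows still includes copies, so it is not a like background for the 2 of 10. The 3 called lower are hairpins of the miR-30 family. The hairpin mir-30a, the most abundant of the list, had 24664, 21026 and 15771 normalized counts in HPD2, HPD3 and HPD7, against 75230, 47044 and 34015 in CTRL1, CTRL2 and CTRL3, and a log2 fold change of −1.41 (SE 0.31, edgeR adjusted *p* = 0.0179). All HPD libraries were lower, as for 45.9% of hairpin rows. The copies mir-30c-1 and mir-30c-2 make the same main product and had log2 fold changes of −1.80 and −1.79 (adjusted *p* = 0.00249 for each), and mir-30c-1 was called in 20 of 20 alternative settings. The call of mir-30a ended in 6 of them, without CTRL1, CTRL2, HPD2, HPD3 or HPD7 and with miRNAs alone. Of the germ cell miRNAs miR-34c and miR-449a, mir-34c stood at 14661 ± 699 normalized counts in HPD and 12989 ± 4340 in SD sperm and mir-449a at 1801 ± 308 in HPD and 1643 ± 595 in SD sperm (± standard deviation, n = 3 per group), with log2 fold changes of 0.14 and 0.09 that did not pass the test. With miRNAs fitted on their own, mir-34c (0.94), mir-449a (0.89) and the X-linked mir-672 (1.18) were called higher (adjusted *p* from 0.0173 to 0.0351), mir-30c-1 (−1.05) and mir-30c-2 (−1.04) stayed lower, and mir-30a (−0.59) did not pass (adjusted *p* = 0.0896). In that fit 9.03% of 277 hairpin rows were called higher and 16.6% lower.

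In log2 fold change the seed relatives lay below their member for mir-32, mir-193a and mir-532, and above it for mir-204. Of 7 listed and tested, 2 were lower and none higher, beside 29.5% of hairpin rows lower, with a median log2 fold change of −0.87. With mir-511, which was not in the list (−1.06, adjusted *p* = 0.551), 2 of 8 were lower and the median was −0.94. Against 0.56 for mir-32, the relatives with its seed ranged from −1.50 for mir-92a-1 to 0.13 for mir-363. The hairpin mir-92a-1, from the miR-17-92 group of growth-promoting miRNAs, had 2433 ± 267 normalized counts in HPD and 6697 ± 843 in SD sperm (± standard deviation, n = 3 per group, edgeR adjusted *p* = 0.00272). The copy mir-92a-2 had a log2 fold change of −1.02 (adjusted *p* = 0.043), a call that ended in 12 of 20 alternatives, among them each library left out, while that of mir-92a-1 held in all 20. The hairpin mir-25, the most abundant with this seed, had 5196 ± 1351 normalized counts in HPD and 9220 ± 3586 in SD sperm (± standard deviation, n = 3 each), and its log2 fold change of −0.87 did not pass (adjusted *p* = 0.13). Both mir-25 and mir-92a-1 had far more counts than mir-32.

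The relative of miR-204, mir-211, was at 48.6 ± 15.6 normalized counts in HPD and 48.0 ± 27.8 in SD sperm (± standard deviation, n = 3 each) and its log2 fold change was −0.04 (95% interval −1.15 to 1.07). The relative of miR-193a, mir-193b, held only 3, 0 and 4 reads in HPD2, HPD3 and HPD7, against 24, 19 and 8 in CTRL1, CTRL2 and CTRL3. All HPD libraries were lower, as for 45.9% of hairpin rows, and the adjusted *p* was 0.16 from edgeR.

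Of 7 names of gene neighbours, 4 had a row and were tested, 2 were lower and none higher, beside 29.5% lower and 0% higher among hairpin rows, and the median log2 fold change was −1.61. The hairpin mir-365, 13814 bases from mir-193a in GRCr8 and on the same strand, had 77.6, 25.2 and 74.6 normalized counts in HPD2, HPD3 and HPD7, against 295, 260.3 and 352 in CTRL1, CTRL2 and CTRL3. The groups did not overlap, a pattern that 45.9% of hairpin rows showed in this direction. The log2 fold change of mir-365 was −2.37 (SE 0.46, edgeR adjusted *p* = 0.00867) beside −2.58 for mir-193a. HPD3 was the highest HPD library for mir-193a and the lowest for mir-365, so the HPD libraries rank them in different orders.

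Near mir-532, the hairpin mir-501 lies 7925 bases away and had 16.2, 20.0 and 22.4 normalized counts in HPD2, HPD3 and HPD7, against 114, 89.8 and 105 in CTRL1, CTRL2 and CTRL3. Its log2 fold change was −2.42 (SE 0.39, edgeR adjusted *p* = 0.00358), while mir-362, at 7221 bases, had one of −0.73 (adjusted *p* = 0.514), close to the −0.71 of mir-532. The difference between mir-501 and mir-532 was not tested. For mir-362 the SD libraries were at 157, 142 and 55.1, with CTRL3 the lowest as for mir-532. With miRNAs fitted on their own mir-365 (−1.57) and mir-501 (−1.59) were still called lower (adjusted *p* = 0.0212 and 0.0238), beside 16.6% of hairpin rows lower in that fit. Both were called in each of the 20 alternatives.

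**Figure D5:**
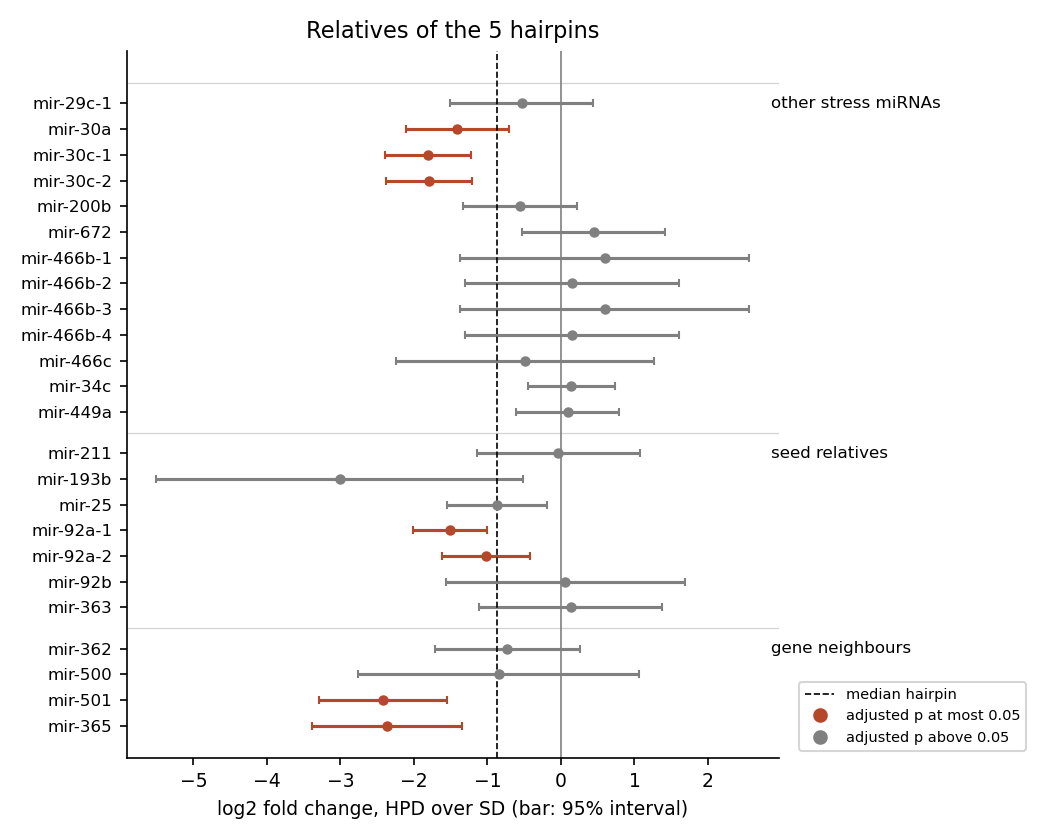
Log2 fold change, HPD over SD, with its 95% interval for the listed miRNAs that were tested, grouped as other stress miRNAs, seed relatives and gene neighbours, with the median hairpin as a dashed line. Coloured points mark an adjusted p of at most 0.05, and all 7 of them lie below 0, from −2.42 for mir-501 to −1.02 for mir-92a-2.

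The hairpins most like each member were found by Pearson's *r* of log2 normalized counts plus 1 over the 6 libraries, given as a description because the libraries share their diets. For mir-204 they were mir-92a-1 (*r* = 0.994) and the erythroid mir-451 (*r* = 0.993), and both of these were called lower, with log2 fold changes of −1.50 and −1.11. For mir-193a they were mir-22 (*r* = 0.974) and mir-195 (*r* = 0.964), called lower as well (−1.93 and −1.56). For mir-375 they were mir-138-1 (*r* = 0.929) and the pancreatic mir-217 (*r* = 0.900), which averaged 11.2 and 9.28 normalized counts in HPD and 14.3 and 21.1 in SD sperm, so that likeness rests on few reads. For mir-32 they were mir-425 (*r* = 0.885) and mir-301a (*r* = 0.836). For mir-532 they were mir-326 (*r* = 0.984) and mir-511 (*r* = 0.939), whose 5p arm has the seed of miR-532-5p. Among the members themselves, *r* was highest between mir-375 and mir-193a (0.828) and between mir-204 and mir-193a (0.826), and it was negative between mir-32 and each of the other 4 (−0.66 to −0.03).

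Marker miRNAs of other cell types are given beside mir-204 and mir-193a and read against the 29.5% of hairpin rows called lower. Of the 11 germ cell markers, all tested, none was called lower or higher. Their sums, 89568 to 119940 normalized counts in HPD and 73624 to 90189 in SD libraries, overlap. In bulk libraries fewer cells of a type and less RNA per cell cannot be told apart. The 6 leukocyte miRNAs summed to 5645 to 7336 normalized counts in HPD and 11531 to 13240 in SD libraries, with 4 of 6 called lower. The endothelial mir-126a was at 1012 to 1732 in HPD and 3076 to 6392 in SD libraries, called lower, and the 3 erythroid miRNAs summed to 620.1 to 695 in HPD and 1113 to 1646 in SD libraries, with 1 of 3 called lower. This 1 was mir-451, which made up most of the sum, with means of 562 in HPD and 1176 in SD sperm. A row of the erythroid mir-486 not matched to the genome is outside the sum. Its mean count was close to that of mir-451, and its log2 fold change of −0.45 was not called. The lower erythroid sum is thus mainly a result about mir-451. The liver miRNA mir-122 was at 0 to 9.57 in HPD, with no read in 1 library, and at 74.2 to 269 in SD libraries, called lower. Epithelial miRNAs summed to 26069 to 51100 in HPD and 39921 to 77405 in SD libraries (1 of 7 lower) and those of smooth muscle and stroma to 20744 to 65653 in HPD and 39679 to 91053 in SD libraries (2 of 4 lower), and these ranges overlap. For striated muscle 4 of 4 had a row, 2 were tested and none was called, with sums of 144 to 270.03 in HPD and 153 to 302 in SD libraries, which overlap too. The part of these cells in the values of mir-204 and mir-193a was not tested.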

How the data were processed

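The authors trimmed adapters, discarded reads under 15 bases, annotated the rest with SPORTS against rat databases of Rnor_6.0, and deposited an estimated count per small RNA, with reads that match several RNAs split between them. Bowtie, DESeq, DESeq2 and the mouse build mm9 are also named in the submitters' notes. The second deposited table holds a normalized count, a signal equal to the truncated count over the DESeq2 size factor of its library for 100% of values (tolerance 1e-06). Values per library are from this table. The row of snoRNA names no single RNA (1.25% to 1.45% of reads in HPD and 0.293% to 0.536% in SD libraries) and was left out.

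Libraries were grouped by diet. Where nothing more is known of the rats, *p* values measure the spread between these libraries. Counts were rounded and tested in R 4.3.3 by edgeR 4.0.16 (TMM, minimum count 10, minimum total 15, Benjamini-Hochberg over 1858 rows). Library size left out 178 tRNA end rows that whole-tRNA rows already count. Standard errors and 95% intervals come from the F statistic. Alternatives used other factors and filters, DESeq2 1.42.0, limma 3.58.1 on log2 of the normalized count plus 1, 0.5 or 5, counts recovered from the normalized table (164 of 1825 rows called), miRNAs alone, and each library left out.

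The members and lists were chosen with earlier results of these data known. Named miRNAs were the 5 members, listed stress miRNAs, seed relatives and gene neighbours that were called or most abundant, and the 2 most similar hairpins of each member. Others of the lists (mir-211, mir-193b, mir-363, mir-362, mir-34c, mir-449a and mir-672) were named after their values were seen. The name mir-29c was read from the first of 2 copies with equal counts, and mir-133a-1 from the row named mir-133a. The count with mir-511 and that with copies counted once were added after the data were seen. Of the names without a row (mir-698, mir-188, mir-502 and mir-660) nothing was analysed here, nor were read lengths and arms. Sequences are from RefSeq (GRCr8), matched by miRNA name, for all 5 hairpins. Figures were drawn with matplotlib 3.10.9.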

Additional observations from a re-analysis of the deposited data

How the results depend on the processing

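Each result was recomputed under 20 alternatives. The counts recovered from the normalized table and the truncated counts gave equal values, so tallies out of 20 hold that check more than once. The log2 fold change was negative in 20 of 20 for mir-204, called in 13, and in 20 of 20 for mir-193a, called in 15. It was positive in 20 of 20 for mir-32, called in 1, and negative in 17 for mir-375 and 19 for mir-532, never called. With miRNAs on their own the log2 fold change was −0.24 for mir-204, 1.44 for mir-32, 0.58 for mir-375 and 0.14 for mir-532, so that 1 member was called lower and 1 higher, with 46 of 277 hairpin rows lower, 25 higher and 1 seed relative lower. Of the listed relatives 3 were higher there. With upper quartile factors the log2 fold change was −0.81 for mir-204, −2.32 for mir-193a and 0.038 for mir-375, no member was called lower (0), and 1 hairpin row was higher. With no filter it was −0.80 for mir-204 and 0.044 for mir-375, with 1 member and 55 of 377 hairpin rows lower and 1 hairpin row higher. DESeq2 called 1 hairpin row higher and a mean count of at least 50 called 2. With DESeq2 size factors in edgeR, upper quartile factors, no filter or the nested tRNA rows left out, 1 seed relative was lower, against 2 in the reported fit. Leaving out each library gave log2 fold changes of −1.08 to −0.88 for mir-204 and −3.55 to −1.96 for mir-193a, 0 to 2 members lower, 40 to 84 hairpin rows lower, 0 to 1 higher, and 1 seed relative lower each time. With a library left out 284 to 303 hairpin rows were tested, against 281. The lowest count, 40 of 293, came without HPD3, and it was 46 of 303 without HPD2 and 51 of 294 without HPD7, against 83 of 281. Over all populations 160 of 1858 rows were called. This compares with 94 of 1690 with the nested tRNA rows left out, 77 of 2118 without HPD3 and 82 of 2859 without HPD2. The cause was not tested.

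The HPD column names hold a library number and a replicate number that differ. By the replicate number CTRL1 goes with HPD2, CTRL2 with HPD3 and CTRL3 with HPD7. A replicate block by these pairs, added after the data were seen, called 72 hairpin rows and 1 seed relative lower. It called 132 rows in all, against 160, and changed no call of a member (mir-204 −1.04, mir-193a −2.90). Paired libraries shared only a replicate number, with correlations of 0.03, −0.03 and 0.09 in that order. CTRL3 alone was most like the HPD library of its own pair, HPD7. The 6 to 40 reads of mir-193a in HPD libraries limit its precision.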
